A study of Homo sapiens with 3 samples.

Results

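SR proteins are splicing factors with a domain rich in arginine and serine, and 10 of them or of their close relatives were followed here: SRSF2, SRSF3, SRSF4, SRSF5, SRSF6, SRSF7, SRSF10, SRSF11, TRA2A and TRA2B. They were chosen by gene symbol, for their role and because several have cassette exons, which are exons that are either kept in the messenger RNA or skipped. Of the 10, 9 had rows in the deposited tables of skipped exons, and SRSF10 had none and was not analysed here. The 9 genes had 38 distinct exons of 39434 in the tables, of which 31 were listed in both (81.6%, against 74.3% of all exons), 6 in RS2 alone and 1 in RS3 alone. They made up 41 rows of 40702 in the RS2 table and 34 rows of 42518 in the RS3 table.

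The samples came from BJ, an established fibroblast line from human foreskin, on day 8 after viral OCT4, SOX2, KLF4 and MYC had been switched on to reprogram the cells. All 3 samples carried these viral factors, and they differed in the siRNA: non-targeting, against SMAD3 (a transcription factor of TGF-beta signalling) or against SFRS11, the older name of SRSF11. There was 1 library per siRNA and no replicate. The authors' deposited tables compare a library coded RS2 and a library coded RS3, each with the remaining library, called the reference library here with no siRNA implied. No label ties a library of the tables to a siRNA, so these names are kept and no value below is assigned to a knockdown. Of 11 fibroblast marker genes 10 had a listed exon in each table; 2 (RS2) and 3 (RS3) of 8 pluripotency genes and 3 (RS2) and 4 (RS3) of 6 epithelial genes did. POU5F1, which encodes the induced OCT4, had none, but a splicing table does not measure how much of a gene is expressed. The depth behind each value is unknown.

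SR proteins bind short sequences in exons and help the spliceosome to recognise them. Many SR genes limit their own output through a so-called poison exon: when it is kept, the message gains an early stop codon, or an exon junction after its stop, and is degraded by nonsense-mediated decay. When the protein is abundant it favours the poison form, which makes the exon a read-out of the gene's own feedback. Because the decay form is degraded, its share among the RNA present understates how often it is made.

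Most of the listed exons of these genes were annotated in transcripts marked for such decay or in protein-coding transcripts. Exons were matched to the GENCODE 29 annotation (GRCh38) of the same gene by exact length and, where a gene had several listed exons, by the spacing between them. Of the 38 exons, 37 had a match. A total of 16 exons in 8 genes were part of a transcript annotated for nonsense-mediated decay and of no protein-coding transcript, and are called decay-annotated here. Another 17 were part of a protein-coding transcript (coding-annotated), although 2 of these hold no coding bases. Several of the 17, in SRSF5, SRSF7, SRSF11, TRA2A and TRA2B, are also part of a transcript annotated for decay. The remaining 4 matched exons were only in transcripts of other types. SRSF3 and SRSF6 had a single listed exon each, so their match rests on length alone. Lengths that keep the reading frame, multiples of 3, were found for 21 of the 38 (55.3%) and for 41.1% of the exons of both tables.

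The decay-annotated exons differ in where the stop codon lies. In 9 of the 16 it lies inside the exon, in at least 1 decay transcript. In 4, among them both SRSF2 exons, it lies only upstream, so that the exon adds a junction after the stop. For the SRSF4 228-base exon, that upstream stop is itself inside the decay-annotated 175-base SRSF4 exon. In the other 3 it lies only downstream. The sequences below run from the 5′ edge of the exon to that stop codon, which is in capitals, as GENCODE 29 transcripts give them on the strand of the gene. They are the exon with the lowest p-value, an exon of the siRNA target, the SRSF4 and SRSF6 exons that share a stretch of letters, and the TRA2B exon, which is listed at a difference of 0.
SRSF3, 456-base exon: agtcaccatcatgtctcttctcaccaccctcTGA
SRSF11, 117-base exon: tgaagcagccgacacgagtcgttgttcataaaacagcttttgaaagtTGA
SRSF4, 195-base exon: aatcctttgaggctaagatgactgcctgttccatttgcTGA
SRSF6, 268-base exon: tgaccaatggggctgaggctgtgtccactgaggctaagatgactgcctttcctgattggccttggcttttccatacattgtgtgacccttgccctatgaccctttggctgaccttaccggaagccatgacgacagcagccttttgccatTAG
TRA2B, 276-base exon: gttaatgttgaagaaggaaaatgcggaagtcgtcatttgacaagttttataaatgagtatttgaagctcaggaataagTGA

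For SRSF3, SRSF6, SRSF11 and TRA2B the frame was read from the start codon of the decay transcript with no earlier stop in frame, after 124, 135, 128 and 38 codons. The decay transcript of the SRSF4 195-base exon has no annotated start codon, so there the frame is GENCODE's and was not read again. The SRSF4 and SRSF6 exons share a run of 20 bases, tgaggctaagatgactgcct, from base 8 of the 195-base SRSF4 exon and base 29 of the SRSF6 exon. The longest run shared by any other pair of decay-annotated exons from different genes was 10 bases, apart from the longer SRSF4 form of the same exon.

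**Figure D1:**
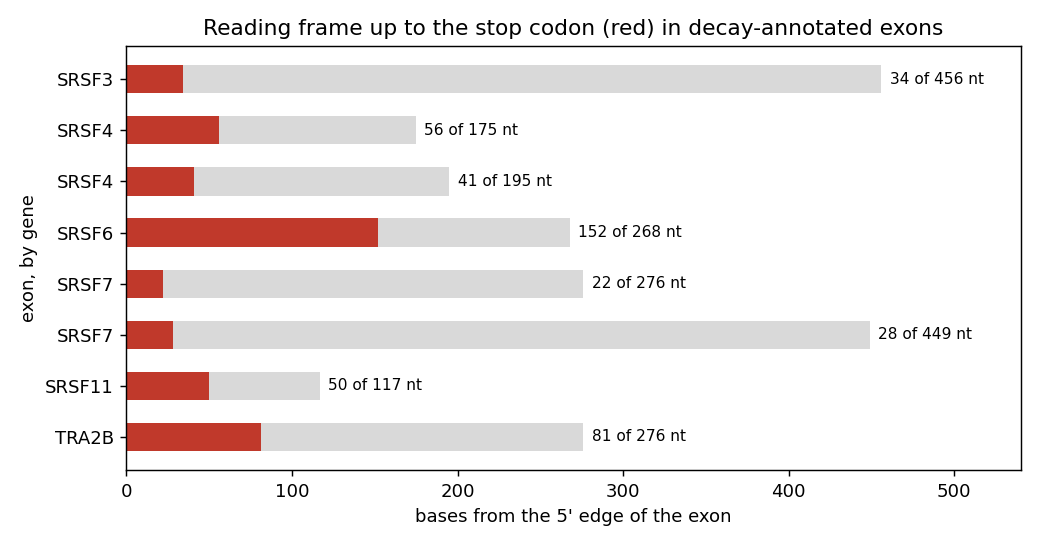
Horizontal bars give 8 of the 9 decay-annotated exons that hold a stop codon, to scale in bases from the 5' edge, with the frame up to and including the stop in red and the rest of the exon in grey. The stop falls 34 bases into the 456-base SRSF3 exon and 152 bases into the 268-base SRSF6 exon.

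The first question was whether exons of SR genes were included differently in RS2 or RS3 than in the reference library. An inclusion level is the share of transcripts over an exon that keep it, and every difference below is RS2 or RS3 minus the reference library, on a scale from -1 to 1. As both tables share that library, a sign found in both is not independent. A row was called when its deposited FDR was under 0.05 and its difference was at least 0.1 in size. No row of any SR gene was called in either table. The background was 0.0712% of all rows in RS2 and 0.967% in RS3, so a count of 0 among 41 and 34 rows is near the background.

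A rule without a minimum difference was also used, chosen after seeing the data. Under it, 3 of the 34 RS3 rows (8.82%) had a deposited FDR under 0.05, against 1.64% of all RS3 rows. They were exons of SRSF2, SRSF3 and SRSF7, all 3 decay-annotated. SRSF2 and SRSF3 were lower (5.88% of the rows, against 1.19% of all RS3 rows) and SRSF7 was higher (2.94%, against 0.456%). Of the 41 RS2 rows 0 passed, against 0.165% of all RS2 rows. At an unadjusted p under 0.05, 6 RS3 rows and 1 RS2 row of the SR genes were found, which is 17.6% and 2.44% of their rows, against 7.61% and 4.52% of all rows. These p-values are the authors' and compare 2 libraries, not 2 conditions, and they were not computed from replicates.

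Differences were small for most SR gene exons. The RS2 rows of the authors' deposited table had a median of -0.003 and a range from -0.281 to 0.116, and 37 of 41 were under 0.05 in size. The RS3 rows of the authors' deposited table had a median of 0.001 and a range from -0.336 to 0.561, with 28 of 34 under 0.05. The medians of all rows of the authors' deposited tables were 0 and -0.001. A size of 0.1 or more was reached by 3 RS2 rows (7.32%) and 4 RS3 rows (11.8%), beside 19.2% and 21.2% of all rows. No SR gene exon had a difference of at least 0.1 in both tables.

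**Figure D2:**
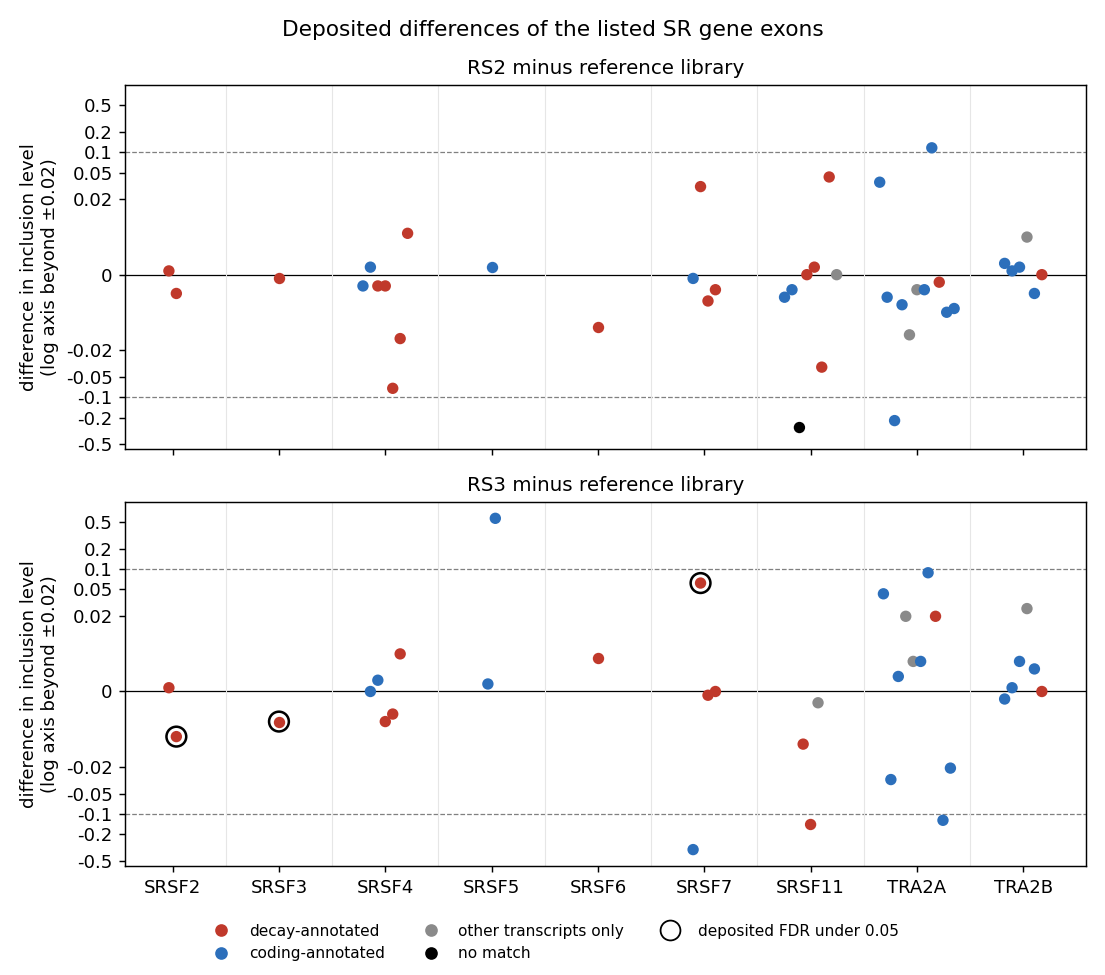
Each point is 1 row of the deposited tables, by gene (x axis), with the difference in inclusion level from the reference library on the y axis, which is linear within 0.02 of 0 and logarithmic beyond; colours give the annotation, rings a deposited FDR under 0.05 and dashed lines a difference of 0.1. The ringed exons of SRSF2, SRSF3 and SRSF7 in RS3 lie inside the dashed lines, while the points outside them have no ring.

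SRSF3 (ENSG00000112081) is the smallest classical SR protein and binds pyrimidine-rich sites. Its only listed exon was the 456-base decay-annotated exon at chr6:36567598-36568053 (hg19, plus strand), whose stop is shown above. The authors' deposited table gives it a difference of -0.001 for RS2 (p = 0.79, FDR 1) and -0.008 for RS3 (p = 8.98e-05, FDR 0.00899). The RS3 p-value is the lowest of all SR gene rows and the 425th lowest of the 42518 in that table. The SRSF3 exon was thus listed as kept less in RS3 than in the reference library, by a small amount. Only 16 of the 699 RS3 rows with an FDR under 0.05 had differences of 0.012 or less in size, and the SRSF2 and SRSF3 rows are among them.

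SRSF2 (ENSG00000161547), also known as SC35, binds exonic sites and has its regulated exons after the stop codon. Of its exons on chromosome 17 (hg19, minus strand), the authors' deposited table lists -0.005 for the 104-base exon at 74731854 to 74731957 in RS2 (p = 0.17, FDR 1) and -0.012 in RS3 (p = 0.000297, FDR 0.0226). For the other, a 98-base exon at 74731143 to 74731240, the authors' deposited table has 0.001 for RS2 and for RS3 (FDR 1 in both). The lower value in RS3 is therefore at the 104-base exon, and the difference between the exons was not tested. In GENCODE the 104-base exon overlaps MFSD11 on the opposite strand, and no source used here says whether reads were assigned by strand.

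SRSF7 (ENSG00000115875), also known as 9G8, differs from the other SR proteins in carrying a zinc knuckle, and it takes part in the export of messenger RNA. The 69-base decay-annotated exon at chr2:38974204-38974272 (hg19, minus strand) was higher by 0.062 in RS3 (p = 0.000486, FDR 0.0328) in the authors' deposited table. For RS2 the authors' deposited table lists 0.031, at the lowest p-value of the SR gene rows there (0.0295) and an FDR of 0.99. Both differences are above 0, but both are taken from the same reference library. This exon is in 1 GENCODE transcript only. With a minimum difference of 0.05 in place of 0.1 it would be the single called SR gene row in RS3.

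A 36-base exon of SRSF7 at chr2:38973286-38973321 is in 9 GENCODE transcripts, of which 2 are protein-coding and 5 are annotated for decay. This exon had the largest negative difference of the SR gene rows in RS3. It was -0.336 (p = 0.0134, FDR 0.336) in the authors' deposited table, and -0.001 (FDR 1) in RS2. The difference in RS3 did not pass the FDR threshold. Another decay-annotated exon of SRSF7, with forms of 276 and 449 bases that share their 3′ edge at 38976040, had values near 0. The authors' deposited table lists -0.007 and -0.004 for them in RS2, then -0.001 and 0 in RS3, all at an FDR of 1. The 2 forms overlap and are not independent.

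**Figure D3:**
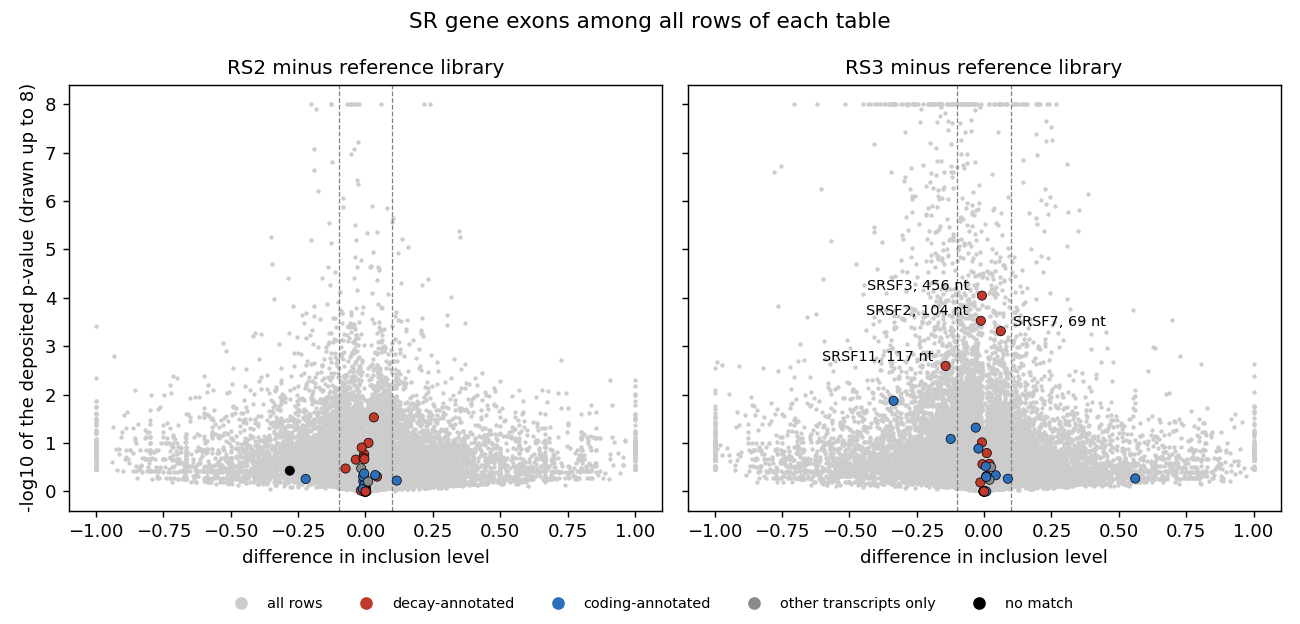
Deposited difference (x axis) against -log10 of the deposited p-value (y axis, drawn up to 8) for every row of the RS2 and RS3 tables in grey, with the SR gene rows in colour by annotation and dashed lines at differences of 0.1. The SRSF3, SRSF2 and SRSF7 rows in RS3 stand near the middle, at differences of -0.008, -0.012 and 0.062, and the widest SR gene difference, 0.561, has a p-value of 0.54.

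SRSF11 (ENSG00000116754) is an SR-related protein and the target of one of the siRNAs, under its older name SFRS11. The tables do not measure its RNA level, so they do not check the knockdown. It had 8 rows in RS2 and 3 in RS3, on chromosome 1 (hg19, plus strand). The 117-base exon at 70697542 to 70697658 is decay-annotated: its stop codon, 50 bases into the exon, is shown above, and in the other decay transcript the stop lies upstream of it. The authors' deposited table lists -0.143 for it in RS3 (p = 0.00256, FDR 0.115), the fourth lowest p-value of the SR gene rows. This passes the minimum difference but not the FDR threshold. For RS2 the authors' deposited table holds 2 rows of this exon with opposite signs, 0.043 and -0.036, both at an FDR of 1. The tables do not say how rows of the same exon differ, so the RS3 row cannot be matched to either.

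The decay-annotated SRSF11 exon of 109 bases at 70696778 to 70696886 has RS2 values of 0.002 and 0 and an RS3 value of -0.014 in the authors' deposited table (FDR 1 for each). All 3 RS3 rows of the gene were thus at or below -0.003 in the authors' deposited table, but none passed the FDR threshold. A 33-base exon at 70712800 to 70712832 made up the third of these rows, with 0 in RS2 in the authors' deposited table. The widest SRSF11 value for RS2 in the authors' deposited table is -0.281 (p = 0.372, FDR 1), at a 62-base exon (70696240 to 70696301) that matched no GENCODE exon and has no RS3 row. A coding-annotated exon, with forms of 225 and 228 bases, was listed in RS2 only, at -0.004 and -0.006 in the authors' deposited table.

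SRSF4 (ENSG00000116350), SRSF5 (ENSG00000100650) and SRSF6 (ENSG00000124193) form a subfamily with a pair of RNA recognition motifs. Their values were close to 0 with few exceptions. The SRSF6 exon at chr20:42087793-42088060 (hg19, plus strand, 268 bases) has -0.014 for RS2 (p = 0.124) and 0.009 for RS3 (p = 0.482) in the authors' deposited table, both at an FDR of 1. The SRSF4 exon that shares 20 bases with it, at chr1:29486376-29486570 (hg19, minus strand, 195 bases), has -0.003 for RS2 and -0.008 for RS3 in the authors' deposited table. For its longer form of 228 bases the authors' deposited table gives -0.003 and -0.006. The lowest FDR of these 3 exons was 0.832, for the SRSF4 195-base form in RS3.

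Over the remaining SRSF4 exons the authors' deposited table ranged from -0.074 to 0.011 for RS2 and from 0 to 0.01 for RS3. The value of -0.074 belongs to a decay-annotated exon of 175 bases (29492402 to 29492576) that was listed in RS2 only (FDR 1 in the authors' deposited table). The decay-annotated SRSF4 exon of 136 bases at 29495015 to 29495150 was listed at 0.011 for RS2 (p = 0.0991) and 0.01 for RS3 (p = 0.161) in the authors' deposited table, without passing the FDR threshold. SRSF5 had a coding-annotated exon on chromosome 14 with a 71-base form listed by the authors' deposited table at 0.002 for RS2 and for RS3. The authors' deposited table lists the widest difference of the 9 genes, 0.561, for its 62-base form, found in RS3 only, with p = 0.54 and an FDR of 1. A difference of that size with such a p-value is not told apart from 0.

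TRA2A (ENSG00000164548) and TRA2B (ENSG00000136527) are the human Transformer-2 proteins, SR-like factors that bind GAA-rich exonic sites and regulate each other's poison exons. All TRA2B rows were under 0.05 in size: over 6 exons the authors' deposited table ranges from -0.005 to 0.01 for RS2 and from -0.002 to 0.026 for RS3, all at an FDR of 1. The highest value in each table is that of a 213-base exon (185641584 to 185641796). Its 276-base poison exon, at chr3:185649365-185649640 (hg19, minus strand), is listed at 0 for both RS2 and RS3 in the authors' deposited table. No difference was listed there at the 3 decimals of the tables. The depth of these rows is unknown, so this gives no bound on a smaller change.

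TRA2A had the most rows, 11 in RS2 and 10 in RS3, on chromosome 7 (hg19, minus strand). Many of them share sequence, as 4 listed exons share the edge at 23562051. The decay-annotated form of 79 bases (23561973 to 23562051) is listed at -0.002 for RS2 and 0.02 for RS3 in the authors' deposited table, both at an FDR of 1. A coding-annotated exon of 301 bases with no coding bases had 2 rows per table in the authors' deposited table, 0.116 and -0.004 for RS2 and 0.088 and 0.008 for RS3, all at an FDR of 1. Its rows thus disagree in size within each table.

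The 90-base exon of TRA2A at 23570800 to 23570889 had 2 rows per table, and the authors' deposited table lists -0.010 and -0.009 for RS2, then -0.124 and -0.021 for RS3. The lowest FDR of these rows was 0.792. The 189-base coding exon at 23552513 to 23552701 has a p-value of 0.048 for RS3 in the authors' deposited table, at a difference of -0.031 and an FDR of 0.645. The RS2 value in the authors' deposited table is -0.006. The largest TRA2A difference in RS2, -0.222 at a 166-base coding exon (23555982 to 23556147), has p = 0.552 and an FDR of 1 in the authors' deposited table, and the exon has no RS3 row.

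**Figure D4:**
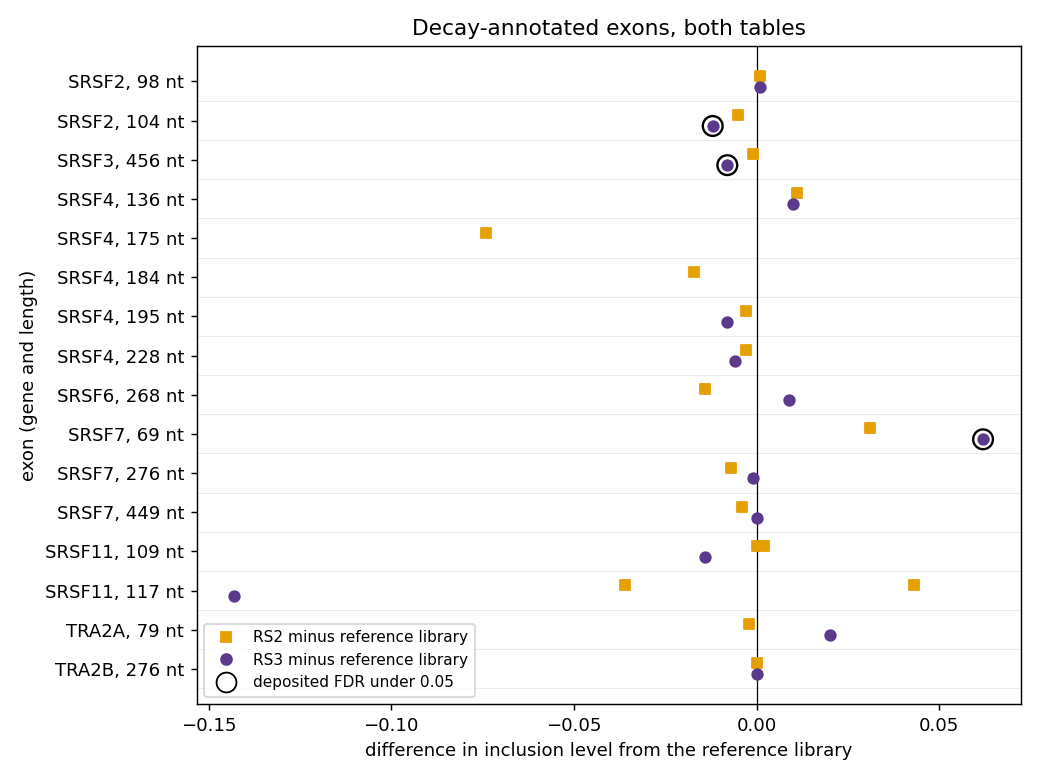
Differences in inclusion level from the reference library (x axis) for the 16 decay-annotated exons (y axis, gene and length), with RS2 rows as squares, RS3 rows as circles and rings for a deposited FDR under 0.05. The points farthest from 0 are the SRSF11 117-base exon (-0.143 in RS3), the SRSF7 69-base exon (0.062 in RS3) and the SRSF4 175-base exon (-0.074 in RS2).

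The decay-annotated and the coding-annotated exons were then set side by side. The coding-annotated group includes the TRA2A exons of 301 and 90 bases, which hold no coding bases. It also includes exons that are in decay transcripts as well, so the groups are not cleanly separate. The 301-base exon also shares an edge with the decay-annotated 79-base form. In RS3, 3 of 14 decay-annotated rows and 0 of 16 coding-annotated rows had an FDR under 0.05. For RS3 the median size in the authors' deposited table was 0.0085 over the decay-annotated rows, 0.008 over the coding-annotated rows and 0.02 over all rows. For RS2 it was 0.0045 in both groups and 0.018 over all rows of the authors' deposited table. Of the 14 decay-annotated RS3 rows 7 were below 0, 5 above and 2 at 0, so the signs were mixed. The annotation groups were not tested against each other.

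Other genes of the pathway were taken from 3 lists. SR proteins act once kinases of the SRPK and CLK families phosphorylate them and TNPO3 carries them into the nucleus. Of 13 genes of SR protein kinases, phosphatases and transport 0 were called in RS3, and 0 of the 12 with rows in RS2. For a TNPO3 exon the authors' deposited table gives an RS3 difference of -0.031 with an FDR of 0.0462. The background for genes with a called row was 0.238% in RS2 and 3.05% in RS3.

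Of 28 further SR proteins and factors with arginine-serine domains, 2 genes (7.14%) had a called row in RS3 and 0 in RS2. A 42-base exon of SRRM1 (chr1:24989674-24989715), a coactivator of splicing, was higher by 0.15 in RS3 (FDR 0.0116), next to 0.058 in RS2 (FDR 1), per the authors' deposited table. A 62-base exon of ACIN1 (chr14:23540334-23540395), a component of complexes on exon junctions, was lower in RS3, where the authors' deposited table lists -0.149 (FDR 0.00253), next to -0.059 in RS2 (FDR 1). SNRNP70, the U1 protein, has a 1474-base exon with an RS3 difference of -0.018 and an FDR of 0.000106 in the authors' deposited table, small in size as for SRSF3 and SRSF2.

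The machinery that degrades poison forms was the third list. Of 15 genes of nonsense-mediated decay and the exon junction complex with RS3 rows, UPF3A was called (6.67% of the genes), and 0 of 16 were called in RS2. UPF3A, a decay factor with a more active paralogue on the X chromosome, had called RS3 rows at a 99-base exon (115051777 to 115051875, -0.305, FDR 0.0215) and a 107-base exon (115048312 to 115048418, -0.175, FDR 0.00907) on chromosome 13 in the authors' deposited table. Other RS3 rows of the same exons were near 0, at 0.041 for the first and 0.037 and -0.009 for the second in the authors' deposited table. For the 99-base exon the authors' deposited table holds RS2 rows of 0.205 (FDR 0.166) and -0.031, and for the 107-base exon 4 from -0.048 to 0.038. MAGOHB, a core protein of the exon junction complex, has RS3 values of -0.018 (FDR 0.0339) and -0.03 (FDR 0.00656) at overlapping forms of 1 exon in the authors' deposited table, under the minimum difference.

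For none of the decay-annotated exons did any stretch of 25 bases occur in a GENCODE transcript of another gene on either strand. Stretches of 2 coding exons of TRA2A, of 129 and 189 bases, and of its 134- and 726-base exons occur in AL139156.1. Of the 204 stretches in the 228-base SRSF11 exon, 33 occur in PLEKHA5, as do 33 of the 201 in its 225-base form. In TRA2B, 1 of the 36 stretches in the 60-base exon occurs in 4 other genes. The SRSF2, SRSF3 and SRSF7 exons with an FDR under 0.05 thus have no such copy in the transcripts searched. The search does not find shared stretches under 25 bases, and the 104-base SRSF2 exon overlaps MFSD11 on the opposite strand. Reads of the TRA2A, SRSF11 and TRA2B exons named above could be shared with another gene.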

How the data were processed

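RNA of 3 libraries was sequenced, and the authors deposited 2 tables of skipped exons. Each row holds, per the file headers, the difference in inclusion level with its p-value and FDR. Per the submitters' processing notes, hg19, STAR and FastQC were used, without versions; the testing program is not given in the sources that were at hand. The 4 columns of level per library match no sample label and entered no result; they were looked at once while the files were inspected, which settled the sign of the difference. No group has a replicate, so no test was computed here.

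Rows were called at a deposited FDR under 0.05 with a difference of at least 0.1, and exons were matched between tables on gene, strand, start and end. The named exons were, per gene, the one with the largest difference, those with an FDR under 0.25 and, from the 3 lists, genes with a called row; other exons were described after their values were seen. The members and lists were chosen with earlier results of these data known. Annotation and sequences came from GENCODE 29 (GRCh38) by exon length and spacing, and no coordinate was carried between builds; not every exon sequence is reported here. Python 3.11.15 and pandas 2.3.3 were used, and the call rule was tested on simulated data. The alternatives were other thresholds, 1 row per exon and an adjustment of the deposited p-values.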

Additional observations from a re-analysis of the deposited data

How the results depend on the processing

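The count of called SR gene rows was 0 in RS2 under all 7 alternatives, which were minimum differences of 0.05, 0.2 and none, FDR limits of 0.01 and 0.1, the p-values adjusted anew by Benjamini-Hochberg and 1 row per exon. In RS3 it was 0 under 5 of these, 1 with a minimum difference of 0.05 and 3 with no minimum difference, which was chosen after seeing the data. The adjustment moved 0 rows of either table across the threshold. The median differences of -0.003 in RS2 and 0.001 in RS3 were the same with 1 row per exon, with the mean of an exon's rows and with only exons listed in 1 row. No paired analysis was possible because each group has 1 library, and for the same reason no library could be left out. Depth is unknown, so no limit can be given for exons with a listed difference of 0.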
